A study of Mus musculus with 25 samples.

Results

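The transcriptional response of cultured mouse macrophages to the lipid mediator resolvin D2 (RvD2) was measured by comparing macrophages exposed to RvD2 for 4 h with untreated macrophages. The comparison used 6 of the 25 samples of the study, 3 RvD2-treated and 3 untreated, chosen by their labels. Both groups were bone marrow-derived macrophages (BMDMs) from male C57BL/6J mice, described as 8 to 10 weeks old in the protocol and as 2 to 4 months old in the sample labels, with no genetic modification named. Marrow cells were grown for 7 days with 10 ng/ml of M-CSF, the growth factor that drives macrophage differentiation, and were then kept for 24 h without it. Treated cultures received 10 nM RvD2 for 4 h, and the controls are described as untreated, with no vehicle named. The remaining samples came from mouse blood and from injured muscle, where the study followed Ly6Chigh and Ly6Clow macrophages and neutrophils after injury. The labels do not say whether the 3 replicates of a group came from separate mice or cultures, and each p-value therefore reflects only how these libraries varied, which may be technical variation.

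RvD2 is made from the omega-3 fatty acid docosahexaenoic acid by lipoxygenases and belongs to the specialised pro-resolving mediators, which are known for limiting neutrophil entry and promoting clearance of debris as inflammation ends. Its described receptor, GPR18 (DRV2), is a G protein-coupled receptor reported to raise cyclic AMP (cAMP) in phagocytes. BMDMs are a standard culture model of resting macrophages: withdrawal of M-CSF slows their division, and they are not otherwise activated here. After the largest changes, the gene groups are taken in turn: metabolic and stress programmes, what the cells sense, what they secrete, how signals are relayed and damped, and then repair, lipid and cell division genes.

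The values are the authors' log2 normalised counts per gene, so a difference of 1 is a doubling. The 6 libraries held roughly 9050000 to 14290000 reads in genes, an uncertain estimate from the spacing of the lowest values. They correlated at 0.984 to 0.989 with each other. The macrophage label was checked with 14 macrophage identity genes, all of them present in all 6 libraries, with Csf1r, the M-CSF receptor, at 14.17, 14.32 and 14.40 with RvD2 and 14.08, 14.26 and 14.38 untreated. Of those 14 genes, Cd14 alone passed the test between the groups. Fibroblast and stromal markers were not at 0, with Col1a1 at 13.95 to 14.53 with RvD2 and 14.10 to 14.30 untreated. That 11-gene list summed to between 0.439 and 0.665% of normalised counts with RvD2 and between 0.473 and 0.568% untreated, and 0 of its 10 tested members were called by limma. Neutrophil granule transcripts (14 genes) were also present in every library, at 0.0421 to 0.0824% with RvD2 and 0.0416 to 0.131% untreated, and 0 of 12 tested members were called, with 0 at an unadjusted p under 0.05. The T cell genes Cd3d, Cd3e, Cd3g and Gzma and the B cell genes Ms4a1 and Pax5 were at 0 in all 6 libraries, but other members of both lists were not. The 12 T and NK cell genes summed to 79.6 to 151 normalised counts with RvD2 and 69.0 to 129 untreated. The 8 B cell genes summed to 299 to 432 with RvD2 and 233 to 361 untreated. Dendritic cell genes made up 0.0128 to 0.0179% with RvD2 and 0.0108 to 0.0150% untreated. Erythroid and platelet genes made up 0.0680 to 0.0846% with RvD2 and 0.0606 to 0.0684% untreated. In bulk RNA, fewer cells of a type and less RNA per cell cannot be told apart.

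RvD2 changed a small part of the transcriptome, and the changes were mostly under 2-fold. Of 15239 genes averaging 10 or more normalised counts over the 6 libraries, 121 (0.794%) were higher and 162 (1.06%) lower with RvD2 at a limma adjusted p under 0.05, 283 in all (1.86%). Of these, only 21 of the higher genes and 5 of the lower genes changed at least 2-fold, and the median fold was 1.48 among the higher and 1.43 among the lower genes. The median log2 change over all tested genes was -0.003. For each of the 283 called genes the 3 RvD2 libraries lay entirely above or below the 3 untreated ones, as they did for 3194 of all tested genes. Because of this separation, no called gene could change direction when 1 library was left out. The number called then ranged from 32 to 140 higher and from 47 to 150 lower, lowest without RvD2 replicate 3 in both directions. Of 92 called genes followed singly, 31 stayed under the threshold whichever library was left out, and these are described below as stable calls. Unless stated otherwise, each adjusted p is limma's with Benjamini-Hochberg correction over all tested genes. Counts of called genes in the lists below stand beside these shares of all tested genes, 0.794% higher and 1.06% lower.

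**Figure D1:**
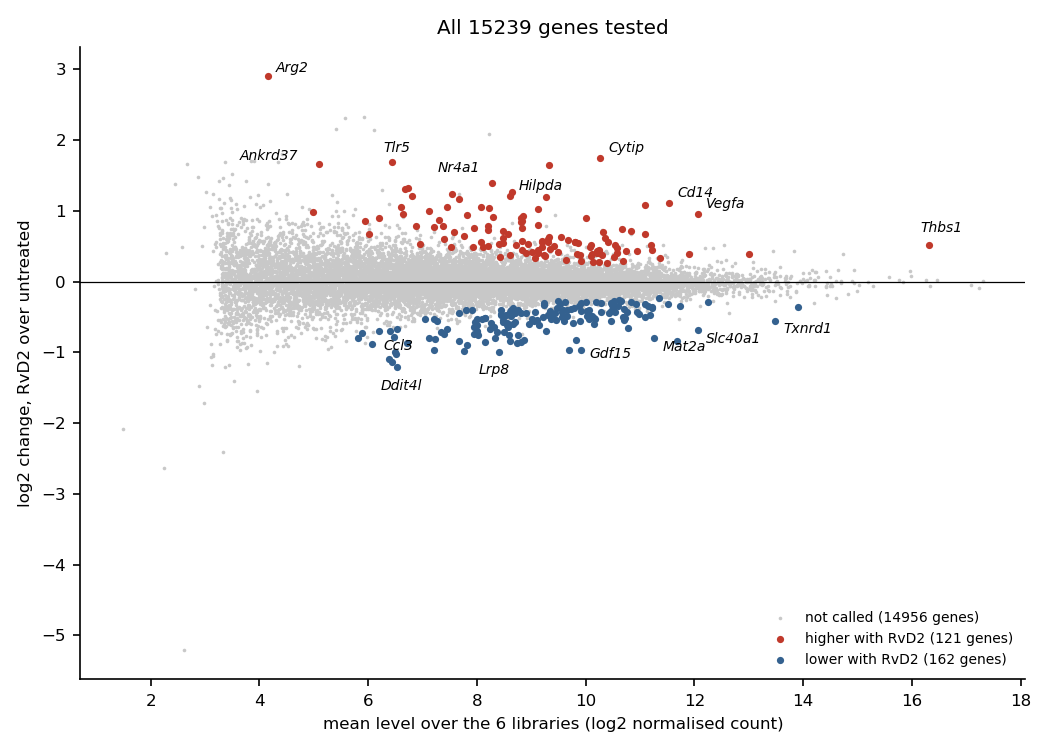
Each point is 1 of the 15239 tested genes, placed by its mean level over the 6 libraries (x axis, log2 normalised count) and its log2 change with RvD2 over untreated (y axis). The 121 higher genes (red) and 162 lower genes (blue) are spread over a wide range of levels, and Arg2 lies highest among the called genes.

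Among genes averaging 50 or more normalised counts, the largest increases were those of Cytip, Tlr5 and Arrdc3. The less abundant Arg2 and Ankrd37, which changed by as much or more, are described with their pathways. Cytip, an adaptor that restrains integrin-mediated leukocyte adhesion, had 10.69, 11.19 and 11.54 with RvD2, against 9.02, 9.50 and 9.68 untreated, a log2 change of 1.74 ± 0.22 (SE, adjusted p = 0.00822). Tlr5, the receptor for bacterial flagellin, had 6.88, 7.37 and 7.58 with RvD2, against 5.61, 5.75 and 5.40 untreated (change 1.69 ± 0.19, adjusted p = 0.00585). Arrdc3, an arrestin-like protein that binds activated beta-adrenergic receptors, had 9.77, 10.26 and 10.45 with RvD2, against 8.25, 8.77 and 8.51 untreated (change 1.65 ± 0.18, adjusted p = 0.00585). In all 3 cases the lowest treated library was above the highest untreated one, as it was for every gene called higher, and the calls were stable. Nr4a1 (change 1.40, adjusted p = 0.00626) and Nr4a2 (1.30, adjusted p = 0.00746), orphan nuclear receptors induced early after many stimuli, rose together and were stable. Cnnm2, a magnesium transporter, rose by 1.23 (adjusted p = 0.00585), and Hilpda, which protects lipid droplets by inhibiting the lipase ATGL, rose by 1.21 (adjusted p = 0.00142). The remaining 5 of the 12 largest increases, Chac1, Trib3, Pde4b, Pde3b and Gpr35, are described with their pathways.

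**Figure D2:**
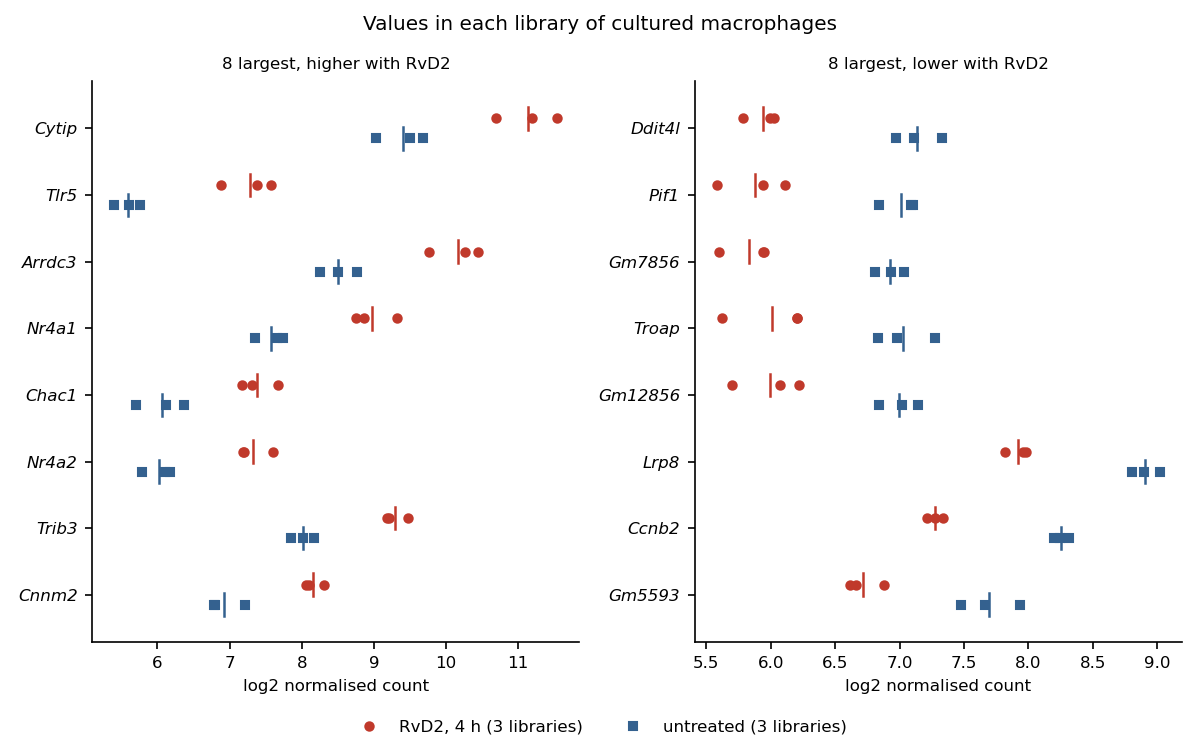
Each row is a gene and each point 1 library on the log2 normalised count scale (x axis), with RvD2 as red circles above untreated as blue squares and a vertical tick at each group mean. The 8 largest called changes in each direction among genes averaging 50 or more normalised counts are shown. Only genes whose 3 RvD2 points did not overlap the 3 untreated points could be picked.

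Among genes at the same level, the decreases were smaller than the leading increases. Ddit4l, an inhibitor of the growth kinase complex mTORC1, had 5.99, 6.03 and 5.79 with RvD2, against 7.33, 6.97 and 7.11 untreated, a change of -1.20 ± 0.13 (SE, adjusted p = 0.00585), and was a stable call. Lrp8, an apolipoprotein E receptor, had 7.82, 7.96 and 7.98 with RvD2, against 8.90, 9.02 and 8.81 untreated (change -0.99 ± 0.08, adjusted p = 0.00279). Ccnb2, encoding mitotic cyclin B2, had 7.27, 7.34 and 7.21 with RvD2, against 8.31, 8.25 and 8.20 untreated (change -0.98 ± 0.08, adjusted p = 0.00279). Both were stable, and the gap between the groups was wider than the spread within either. Ckap2, a spindle protein, fell by 0.90 on the log2 scale (adjusted p = 0.00324, stable). Pif1, a DNA helicase, fell by 1.14, and its adjusted p of 0.0117 became 0.0543 without untreated replicate 1. Troap, another spindle-associated gene, fell by 1.02, with an adjusted p of 0.0358 that reached 0.117 when single libraries were left out and stayed under the threshold only without RvD2 replicate 1. Gdf15, a stress-induced cytokine, fell by 0.96 (adjusted p = 0.00936, and 0.0592 without RvD2 replicate 3). Also among the 12 largest decreases were 9130014G24Rik (change -0.88) and the processed pseudogenes Gm7856 (-1.10), Gm12856 (adjusted p = 0.0192) and Gm5593 (-0.97), which are uncertain because their reads may be shared with parent genes. In all, 2 called higher and 7 called lower genes are annotated as pseudogenes of any type. The smallest adjusted p of any lower gene, named here after the values were seen, belonged to Mat2a, which makes the methyl donor S-adenosylmethionine. It had 10.91, 10.86 and 10.81 with RvD2, against 11.71, 11.66 and 11.62 untreated (change -0.80 ± 0.05, adjusted p = 0.00118).

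Several genes that respond to low oxygen or drive glucose uptake rose with RvD2, among them hexokinase 2, whereas Ldha, Gapdh, Pgk1 and Eno1 did not pass the test. In background, hypoxia-inducible factor 1 is kept low by prolyl hydroxylases (Egln genes) and Vhl, and when stable it switches on glucose transporters, hexokinase and Vegfa. Of 30 tested members of a glycolysis and hypoxia list, 7 were higher and 0 lower, 26 had a change above 0, and the median change was 0.15. Ankrd37, a classical hypoxia target, had 5.97, 5.91 and 5.90 with RvD2, against 4.37, 4.18 and 4.27 untreated (change 1.66 ± 0.16, adjusted p = 0.00324). Vegfa, the main angiogenic growth factor, had 12.49, 12.49 and 12.63 with RvD2, against 11.59, 11.66 and 11.51 untreated, a change of 0.95 ± 0.06. Its adjusted p of 0.00118, shared with Mat2a, was the smallest over all tested genes. Slc2a1, the glucose transporter GLUT1, had 11.23, 11.19 and 11.16 with RvD2, against 10.38, 10.60 and 10.47 untreated (change 0.71 ± 0.07, adjusted p = 0.00324). Treated and untreated libraries were cleanly separated for all 3 genes, and all 3 calls were stable. Egln3, a prolyl hydroxylase that is itself a hypoxia target, rose by 0.86 (adjusted p = 0.0119), but its adjusted p reached 0.0622 among the fits without RvD2 replicate 2, RvD2 replicate 3 or untreated replicate 2. Hk2 (0.51, adjusted p = 0.00733), Ero1l (0.38, adjusted p = 0.0195) and Hif1a itself (0.33, adjusted p = 0.0231) made up the 7. The number of higher members fell to 4 without RvD2 replicate 2, without RvD2 replicate 3 or without untreated replicate 2, and was at most 7 in the other leave-one-out fits. The abundant glycolytic enzymes were near 0, with changes of 0.07 for Ldha, 0.04 for Gapdh, 0.03 for Pgk1 and 0.00 for Eno1. Outside the list, and picked after seeing the values, Mxi1, a Myc antagonist, rose by 1.02 (adjusted p = 0.00813), Ak4, a mitochondrial adenylate kinase, by 0.86 (adjusted p = 0.00339), and Vhl by 0.45 (adjusted p = 0.0381). A pseudogene of Ak4, Ak3l2-ps, was also called, so reads may be split between the pair.

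The promoter window of Ankrd37 is shown because it carries the hypoxia response core, ACGTG, close to the transcription start. The sequence is from RefSeq (GRCm38.p6, the mm10 build), chr8:45999851-46000100, minus strand, 250 bases upstream of the start and written 5′ to 3′, with the cores in capitals.
Ankrd37: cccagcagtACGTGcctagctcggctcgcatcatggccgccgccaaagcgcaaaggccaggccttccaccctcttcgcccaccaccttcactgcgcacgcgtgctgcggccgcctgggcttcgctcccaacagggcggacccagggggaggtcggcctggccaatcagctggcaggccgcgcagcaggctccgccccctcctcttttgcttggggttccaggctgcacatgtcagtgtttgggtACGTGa
The cores begin 241 and 6 bases before the start. Windows of 300 bases (250 before and 50 after the start) were available for 6 of the 7 called members, and all 6 (Vegfa, Slc2a1, Ankrd37, Hk2, Egln3 and Hif1a) held ACGTG on either strand. Of the 27025 genes in the RefSeq table, 21.8% held it, as did 29.2% of the tested genes and 34.1% of all genes higher with RvD2 that had a window. ACGTG also lies within the E-box CACGTG, and a match of 5 letters is a description of the sequence, not of binding.

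**Figure D3:**
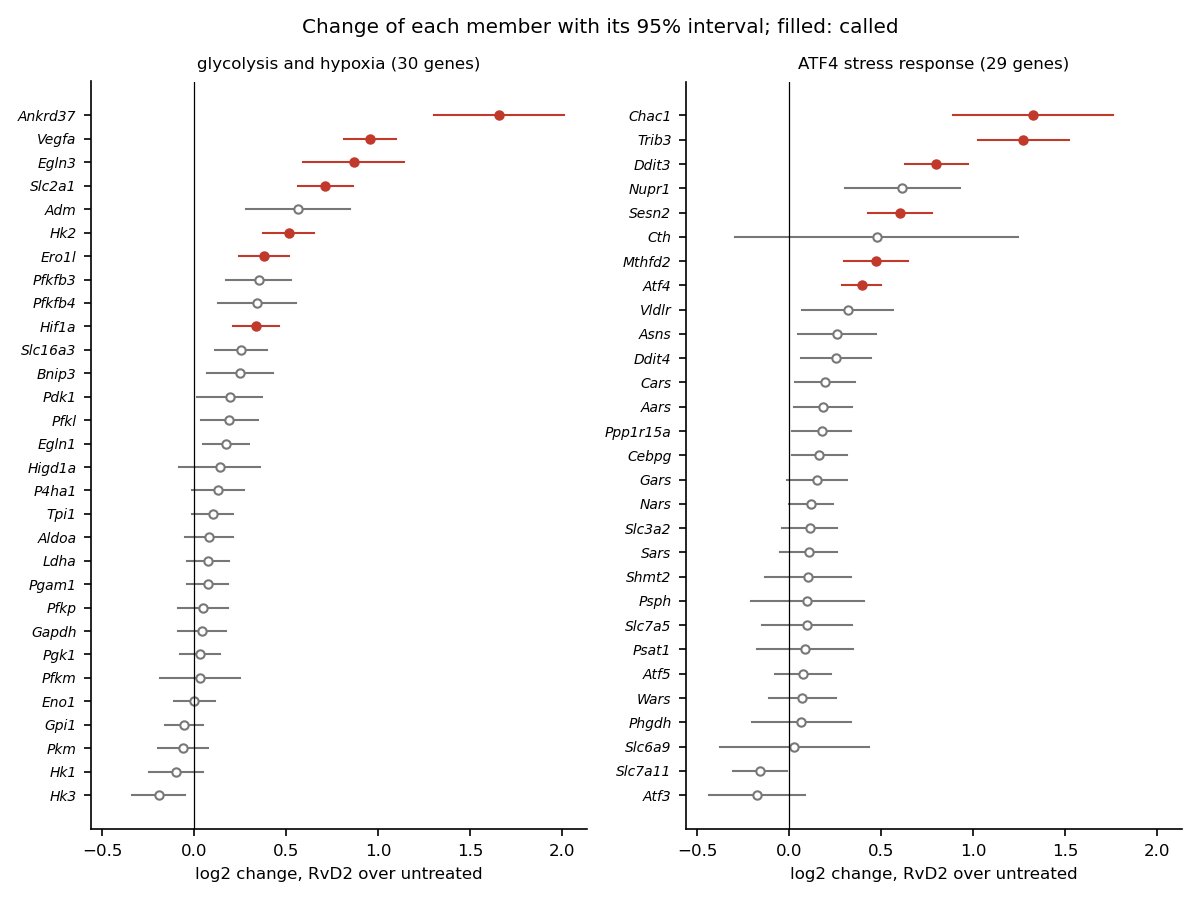
The log2 change with RvD2 over untreated (x axis) of each tested member of the glycolysis and hypoxia list (left, 30 genes) and the ATF4 list (right, 29 genes), with its 95% interval. Filled red points are called genes: 7 on the left, led by Ankrd37 at 1.66, and 6 on the right, led by Chac1 at 1.32.

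Several targets of ATF4, the transcription factor of the integrated stress response, also rose. Cells make ATF4 when amino acids are short, when proteins misfold in the endoplasmic reticulum, or on other stresses, and it switches on amino acid synthesis and feedback genes. Of 29 tested members, 6 were higher and 0 lower, 27 had a change above 0, and the median was 0.16. Chac1, which degrades glutathione, had 7.67, 7.31 and 7.18 with RvD2, against 6.12, 6.36 and 5.71 untreated (change 1.32 ± 0.19, adjusted p = 0.0132, and 0.0508 without RvD2 replicate 2). Trib3, a pseudokinase that restrains ATF4, had 9.48, 9.18 and 9.21 with RvD2, against 8.17, 8.02 and 7.85 untreated (change 1.27 ± 0.11, adjusted p = 0.00279). Ddit3, encoding the factor CHOP, had 9.62, 9.43 and 9.55 with RvD2, against 8.67, 8.83 and 8.69 untreated (change 0.80 ± 0.08, adjusted p = 0.00324). The groups did not overlap for these genes, and Trib3 and Ddit3 were stable. Sesn2, an amino acid sensor, rose by 0.60 (adjusted p = 0.00852, stable), Mthfd2 by 0.47 (adjusted p = 0.021) and Atf4 itself by 0.39 (adjusted p = 0.00716). Without RvD2 replicate 2 the count was 4. The aminoacyl-tRNA synthetase genes Aars, Cars, Gars, Nars, Sars and Wars had changes of 0.07 to 0.19, and none passed the test. Asns, asparagine synthetase, changed by 0.26 (adjusted p = 0.226), and Atf3, a partner induced in the same response, by -0.18 (adjusted p = 0.52).

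The window of Chac1 is shown because it was the only one of the 6 called ATF4 genes whose window held the composite site TGATGCAA. That element joins partial sites for C/EBP and ATF factors, and 1.03% of the genes in the RefSeq table and 0.778% of the tested genes with a window held it on either strand. The window is chr2:119350992-119351241, plus strand (RefSeq, GRCm38.p6), 250 bases upstream of the start, with the match in capitals, read here on the opposite strand as TTGCATCA.
Chac1: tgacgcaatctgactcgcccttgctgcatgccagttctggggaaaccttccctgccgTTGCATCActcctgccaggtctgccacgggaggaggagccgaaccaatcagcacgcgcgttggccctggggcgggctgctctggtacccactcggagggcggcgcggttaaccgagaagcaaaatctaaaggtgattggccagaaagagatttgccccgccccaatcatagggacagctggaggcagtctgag
The match begins 193 bases before the start. The windows of the other 5 called members did not contain these 8 letters.

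The endoplasmic reticulum and heat shock lists held 3 calls each. Of 24 tested genes of the unfolded protein response, 1 was higher and 2 lower, with a median change of -0.08: Ern1, the sensor IRE1, rose by 0.40 (adjusted p = 0.0163), while the chaperone Hyou1 fell by 0.24 (adjusted p = 0.0469) and the ubiquitin ligase Syvn1 by 0.29 (adjusted p = 0.0469). None of these 3 calls was stable, and the list had between 0 and 1 call in each direction when a library was left out. Of 19 heat shock genes, 3 were higher and 0 lower, with a median of 0.04. Hspa1a, an inducible HSP70, had 8.55, 8.96 and 8.75 with RvD2, against 7.60, 8.13 and 7.82 untreated (change 0.91 ± 0.15, adjusted p = 0.0212), and its near-identical copy Hspa1b rose by 0.75 (adjusted p = 0.0358). Reads of these paralogues may be split between them, so they count as 1 observation at best. Hsph1, an HSP70 cofactor, rose by 0.44 (adjusted p = 0.0415). All 3 calls were lost in the fits without RvD2 replicate 2, RvD2 replicate 3, untreated replicate 1 or untreated replicate 3, with adjusted p-values up to 0.104 for Hspa1a, 0.139 for Hspa1b and 0.152 for Hsph1.

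Among sensors of microbes, Tlr5 and Cd14 rose, Cd180 fell and the remaining 25 did not pass the test. Of 28 tested pattern recognition receptors, 2 were higher and 1 lower, with a median change of 0.05. Besides Tlr5, Cd14, the co-receptor that hands lipopolysaccharide to TLR4, had 11.87, 12.00 and 12.41 with RvD2, against 10.60, 11.05 and 11.31 untreated (change 1.11 ± 0.18, adjusted p = 0.0237). The groups did not overlap, but the Cd14 call was lost in 4 of the 6 leave-one-out fits, with adjusted p up to 0.0988, and held only without RvD2 replicate 1 or untreated replicate 3. Cd180, a TLR-related surface protein, had 10.55, 10.66 and 10.45 with RvD2, against 10.96, 11.06 and 10.92 untreated (change -0.43 ± 0.07, adjusted p = 0.0207, up to 0.0993 without RvD2 replicate 3, untreated replicate 1 or untreated replicate 2). Ticam2, the TLR4 adaptor TRAM, was noticed after the values were seen. It had 8.00, 7.99 and 7.94 with RvD2, against 6.90, 6.70 and 7.15 untreated (change 1.06 ± 0.12, adjusted p = 0.00639). In the Toll-like receptor family, 10 were tested and Tlr5 was the only 1 called. Tlr4, the lipopolysaccharide receptor itself, had 10.08, 10.29 and 10.11 with RvD2, against 10.16, 10.18 and 10.11 untreated, with overlapping groups (change 0.01, 95% interval -0.15 to 0.16, adjusted p = 0.975).

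Receptors for small molecules were affected at 2 genes. Of 19 tested receptors for amines, adenosine and nucleotides, together with related orphan receptors, 2 were higher and 0 lower, with a median change of 0.26. Gpr35, a receptor for kynurenic acid and other acidic metabolites, had 8.30, 8.22 and 8.22 with RvD2, against 7.10, 7.14 and 7.02 untreated, a change of 1.16 ± 0.08 with an adjusted p of 0.00125. The libraries of each group lay close together, and the call was stable. Gpr65, a proton-sensing receptor coupled to cAMP, rose by 0.49 (adjusted p = 0.0284, up to 0.114 with a library left out and under the threshold only without RvD2 replicate 1). Among 20 chemoattractant receptors, S1pr1, the receptor for sphingosine 1-phosphate, alone passed (change 0.45, adjusted p = 0.0405), and its call held only without RvD2 replicate 1, with adjusted p up to 0.139 in the other fits.

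The cytokines that rose were Lif and Osm, both of the interleukin-6 family, and Il16, while Il1b, Tnf and Il10 did not pass the test. Of 15 tested cytokines, 3 were higher and 0 lower, with a median of 0.20. Lif had 8.51, 8.74 and 9.0 with RvD2, against 7.70, 7.61 and 7.82 untreated (change 1.04 ± 0.12, adjusted p = 0.00733, stable). Osm, encoding oncostatin M, had 7.43, 7.61 and 7.82 with RvD2, against 6.43, 6.67 and 6.78 untreated (change 0.99 ± 0.13, adjusted p = 0.0106, and 0.0565 without RvD2 replicate 3). The groups did not overlap for either. Il16, a T cell attractant, rose by 0.77 (adjusted p = 0.0415, up to 0.166 without RvD2 replicate 2, RvD2 replicate 3, untreated replicate 1 or untreated replicate 2). Il1b was low, at 4.14, 3.82 and 4.67 with RvD2 and 1.87, 2.63 and 3.07 untreated. Its groups did not overlap, but its change of 1.69 ± 0.39 gave an adjusted p of 0.0738. Tnf had 7.35, 7.18 and 7.70 with RvD2, against 7.28, 7.55 and 7.58 untreated, a difference of -0.06 with a 95% interval of -0.39 to 0.27. Il10 differed by 0.11, with an interval of -0.54 to 0.76. Il6 had values of 1.44, 0 and 2.41 with RvD2 and 0.29, 2.40 and 1.50 untreated, under the level needed for a test.

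Of 17 tested chemokines, 1 was lower and 0 higher, although 15 had a change above 0 (median 0.22). Ccl3, encoding MIP-1 alpha, had 6.88, 6.70 and 6.60 with RvD2, against 7.55, 7.48 and 7.53 untreated (change -0.79 ± 0.10, adjusted p = 0.00853). That call was stable, and the treated libraries were all lower. Ccl4, its neighbour in the genome and in function, changed by -0.14 (adjusted p = 0.794), and Ccl2, the main monocyte attractant, by 0.43 (adjusted p = 0.322).

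Few regulators of NF-kB and of the inflammasome passed the adjusted test, although many had a small unadjusted p. Of 23 NF-kB subunits and feedback targets, 2 were higher: Nfkbie, an inhibitor of NF-kB, by 0.69 (adjusted p = 0.0428), and Nfkb2, the precursor of the p52 subunit, by 0.43 (adjusted p = 0.0469). The list's median was 0.19, and 11 of the 23 (47.8%) had an unadjusted p under 0.05, all higher, against 15.6% of all tested genes. Both calls were lost whichever library was left out, with adjusted p-values up to 0.166 and 0.175. Nlrp3, the inflammasome sensor, rose by 0.52 (adjusted p = 0.0373), 1 of 18 tested inflammasome genes, and its call held only without untreated replicate 3 (adjusted p up to 0.144 otherwise). Of those 18 genes, 7 (38.9%) had an unadjusted p under 0.05, all higher, and the median was 0.19. Of 25 STAT and SOCS genes, Pim1, a kinase induced by STAT signalling, was the only 1 called (change 0.79, adjusted p = 0.0249, up to 0.107 with a library left out and held only without untreated replicate 1 or untreated replicate 3). Socs3, the usual feedback gene downstream of interleukin-6 family cytokines, changed by 0.10 (adjusted p = 0.806).

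Interferon-stimulated genes did not pass the test in either direction with all 6 libraries. Of 38 type I interferon-stimulated genes, limma called 0, with 6 at an unadjusted p under 0.05 (15.8%, against 15.6% of all tested genes), all above 0. The median change was 0.37, and 36 of 38 changes were above 0. By library, the list's median level was 8.15, 7.81 and 8.29 with RvD2 and 7.44, 7.38 and 8.17 untreated. Untreated replicate 3 thus lay among the treated libraries, and for none of the 38 genes were the groups separate. Without that library 5 of the 38 were called higher, and with any other library left out 0 were. Rsad2, an antiviral enzyme, had the largest change of this list, at 1.24 with an adjusted p of 0.299. Of 23 interferon-gamma GTPases and class I processing genes, 0 were called and 5 had an unadjusted p under 0.05, with a median change of 0.24. Genes of MHC class II and costimulation (13 tested, 0 called, 1 at an unadjusted p under 0.05) had a median of 0.10.

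Among genes that make, sense and remove cAMP, those called were all phosphodiesterases. Of 30 tested genes for adenylyl cyclases, phosphodiesterases and protein kinase A subunits, 4 were higher and 0 lower, with a median change of 0.07. Phosphodiesterases break down cyclic nucleotides. Pde3b had 9.68, 9.84 and 10.09 with RvD2, against 8.62, 8.65 and 8.76 untreated (change 1.19 ± 0.10, adjusted p = 0.00279). Pde4b had 7.05, 7.19 and 7.95 with RvD2, against 6.06, 6.07 and 6.45 untreated (change 1.21 ± 0.23, adjusted p = 0.0399). The treated libraries were higher in both. The Pde3b call was stable, whereas that of Pde4b held only without RvD2 replicate 1, with adjusted p up to 0.137 in the other fits. Pde7b rose by 0.78 (adjusted p = 0.0351) and Pde4d by 0.53 (adjusted p = 0.0379), but neither call was stable. That of Pde4d was lost whichever library was left out, with adjusted p up to 0.137. A second, less abundant entry named Pde4d rose by 0.78 and was not called (adjusted p = 0.152). Without RvD2 replicate 2, RvD2 replicate 3, untreated replicate 1 or untreated replicate 2, 1 of the 4 called genes remained. None of the tested adenylyl cyclases passed, and Gnas, the stimulatory G protein subunit, changed by -0.08 (adjusted p = 0.727).

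Of 21 regulators that damp G protein signals, Arrdc3, Rgs2 and Rgs1 were higher and 0 were lower. Changes were above 0 for 12 and below 0 for 9 of the list, with a median of 0.10, and 1 was called without RvD2 replicate 2, RvD2 replicate 3, untreated replicate 1 or untreated replicate 3. Rgs2, which speeds the inactivation of Gq, had 10.07, 10.62 and 10.71 with RvD2, against 9.42, 9.68 and 9.59 untreated (change 0.90 ± 0.15, adjusted p = 0.0258, held only without RvD2 replicate 1 and up to 0.107 otherwise). Rgs1 rose by 0.63 (adjusted p = 0.0165, held only without RvD2 replicate 1 or untreated replicate 2 and up to 0.084 otherwise). Dual specificity phosphatases and Sprouty genes, the feedback inhibitors of MAP kinases, had 20 tested members, 0 called by limma and 4 at an unadjusted p under 0.05, with a median of 0.10.

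Several transcriptional regulators changed, most of them by under 2-fold. Crem, a cAMP-responsive repressor and activator, had 7.97, 8.32 and 8.60 with RvD2, against 7.43, 7.26 and 7.39 untreated (change 0.94 ± 0.15, adjusted p = 0.019, held only without RvD2 replicate 1 and up to 0.081 otherwise). Among 30 tested macrophage transcription factors, Crem and Bhlhe40 (0.40, adjusted p = 0.0225) were higher and Tfec (-0.57, adjusted p = 0.0252) and Mafg (-0.32, adjusted p = 0.0399) lower, with a median of 0.05. Tfec is a relative of MITF, and Mafg is a small Maf protein. Without untreated replicate 1, for example, none of the 4 passed, and the list had 0 to 2 higher and 0 to 1 lower members when 1 library was left out. In the clock list of 19 genes, Nfil3, a repressor that is also a cytokine-responsive factor, rose by 0.75 (adjusted p = 0.0102, and up to 0.0544 without RvD2 replicate 2 or RvD2 replicate 3), and Cry1, a core repressor, fell by 0.45 (adjusted p = 0.0428). Irf2 rose by 0.57 (adjusted p = 0.0163), the only 1 of 7 interferon regulatory factors, and Klf4 by 0.51 (adjusted p = 0.0173), the only 1 of 12 Kruppel-like factors. Glucocorticoid receptor targets moved in both directions: 14 of 18 (77.8%) had an unadjusted limma p under 0.05, 9 higher and 5 lower, against 15.6% of all tested genes. Of the 18, 2 passed the adjusted test. Tsc22d3, encoding the anti-inflammatory protein GILZ, rose by 0.56 (adjusted p = 0.0181) and Sgk1, a kinase, by 0.43 (adjusted p = 0.0396). Each of these 5 calls was lost in some leave-one-out fit: adjusted p reached 0.166 for Cry1, 0.087 for Irf2, 0.0841 for Klf4, 0.0808 for Tsc22d3 and 0.156 for Sgk1, and each was lost without RvD2 replicate 2 and without RvD2 replicate 3, among others.

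Among arginine and polyamine genes, the mitochondrial arginase Arg2 and the oxidase Smox rose. Arg2 had 5.14, 5.87 and 5.82 with RvD2, against 2.88, 3.13 and 2.08 untreated, a change of 2.91 ± 0.34 (adjusted p = 0.00693). The groups were separate and the call was stable, but Arg2 averaged 28.4 normalised counts, and its untreated libraries were under the filter of 10 counts, so it entered the test only through its level with RvD2. Its change was 1.82 when 10 was added to the normalised counts, which damps changes of low genes. Arg1, the cytosolic arginase that marks alternatively activated macrophages, had 7.88, 7.53 and 8.11 with RvD2, against 7.67, 7.04 and 7.23 untreated, and its groups overlapped (change 0.52 ± 0.19, adjusted p = 0.218). Smox, which oxidises spermine, rose by 0.63 (adjusted p = 0.00747, stable). These were 2 called of 17 tested arginine and polyamine genes, with a median change of 0.05.

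Other alternative activation genes gave 3 higher of 18 tested and 0 lower (median 0.20): Klf4, Hbegf and Tgm2. Tgm2, a transglutaminase used as a marker of alternative activation, had 13.19, 13.15 and 13.26 with RvD2, against 12.74, 12.81 and 12.89 untreated (change 0.39 ± 0.06, adjusted p = 0.0173). Mrc1, the mannose receptor, had 11.72, 11.58 and 11.80 with RvD2, against 11.62, 11.32 and 11.65 untreated, a difference of 0.17 with a 95% interval of -0.05 to 0.38. Without RvD2 replicate 2, RvD2 replicate 3 or untreated replicate 1, no member of this list passed.

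Growth factors and matrix genes of wound repair moved in both directions. Of 24 tested growth factors and repair ligands, 3 were higher (Vegfa, Thbs1 and Hbegf) and 2 lower (Gdf15 and Nrp1), with a median of 0.07. Thbs1, the matrix protein thrombospondin 1 and an abundant transcript in these cells, had 16.58, 16.47 and 16.67 with RvD2, against 16.13, 16.03 and 16.00 untreated (change 0.52 ± 0.08, adjusted p = 0.0162). Gdf15 had 9.74, 9.26 and 9.30 with RvD2, against 10.35, 10.30 and 10.54 untreated. Both genes were separated between the groups. The Thbs1 call was lost without RvD2 replicate 3, untreated replicate 2 or untreated replicate 3 (adjusted p up to 0.1). Hbegf, an EGF receptor ligand, rose by 0.49 (adjusted p = 0.0138, up to 0.0792 without RvD2 replicate 2, RvD2 replicate 3 or untreated replicate 1), and Nrp1, a co-receptor for VEGF, fell by 0.29 (adjusted p = 0.0308). Igf1, a macrophage product needed for muscle repair, had 12.42, 12.81 and 12.69 with RvD2, against 12.45, 12.67 and 12.59 untreated, a difference of 0.07 with an interval of -0.16 to 0.30. Of 26 matrix and protease genes, Thbs1 and the metalloproteinase Mmp19 (0.46, adjusted p = 0.0252) were higher, with a median of 0.06, and the count was 0 without RvD2 replicate 3 or without untreated replicate 2.

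Few genes for uptake and adhesion passed the test. Of 32 efferocytosis and scavenger genes, Tgm2 alone was higher (median -0.02), and Mertk, the receptor for apoptotic cells, had 9.86, 10.23 and 10.21 with RvD2, against 9.91, 10.15 and 10.16 untreated, a difference of 0.02 with an interval of -0.22 to 0.27. Of 26 integrin and adhesion genes, Itga9 (0.42, adjusted p = 0.0223) and Cd47 (0.40, adjusted p = 0.0467) were higher and Sirpa (-0.36, adjusted p = 0.0211) lower. CD47 is the "do not eat me" signal and SIRP alpha its receptor on macrophages. Sirpa had 13.75, 13.72 and 13.73 with RvD2, against 14.02, 14.08 and 14.18 untreated, so the groups were separate although the change was small. None of these 3 calls was stable, with adjusted p up to 0.104 for Itga9, 0.142 for Cd47 and 0.104 for Sirpa, and each lost without RvD2 replicate 3. The paired receptors Cd300lf (0.56, adjusted p = 0.0107, and 0.0622 without RvD2 replicate 3) and Cd200r1 (-0.38, adjusted p = 0.0459, up to 0.144 and lost whichever library was left out) were 2 of 24 tested.

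The pathway that makes and senses lipid mediators, to which RvD2 belongs, changed at 2 genes. Gpr18 had 0.72, 0 and 0 with RvD2 and 0, 1.41 and 0.50 untreated, on the log2 scale, so at most a few normalised counts in any library, and it could not be tested. Alox15, the lipoxygenase used in resolvin synthesis, was 0 in 5 libraries and 0.50 in untreated replicate 3. Alox5 had 4.02, 3.17 and 4.90 with RvD2, against 3.98, 4.22 and 5.54 untreated, with overlapping groups (change -0.55 ± 0.51, adjusted p = 0.685). Ptgs2, encoding cyclooxygenase 2, had 10.18, 10.87 and 10.83 with RvD2, against 10.08, 10.88 and 10.47 untreated, a difference of 0.15 with an interval of -0.36 to 0.66. Ptgs1 differed by 0.02. Of 22 tested genes, the 2 called were lower: Ptafr, the receptor for platelet-activating factor (-0.49, adjusted p = 0.026), and Hpgds, a prostaglandin D2 synthase (-0.42, adjusted p = 0.0467). Ptafr had 10.80, 10.90 and 10.83 with RvD2, against 11.16, 11.35 and 11.50 untreated. Without RvD2 replicate 2, RvD2 replicate 3, untreated replicate 2 or untreated replicate 3, neither of the pair passed (adjusted p up to 0.115 for Ptafr and 0.139 for Hpgds).

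Lipid storage and efflux genes rose at 2 members. Of 27 tested genes, Hilpda and Angptl4, an inhibitor of lipoprotein lipase, were higher and 0 were lower (median 0.00). Hilpda had 9.08, 9.20 and 9.36 with RvD2, against 8.06, 8.05 and 7.91 untreated, and was stable. Angptl4 rose by 0.39 (adjusted p = 0.0379, up to 0.124, and lost whichever library was left out). Abca1, the cholesterol efflux pump, had 12.59, 12.89 and 12.93 with RvD2, against 12.07, 12.48 and 12.31 untreated, groups that did not overlap, with a change of 0.52 ± 0.12 and an adjusted p of 0.071. Of 21 fatty acid synthesis genes, limma called 0 and 8 had an unadjusted p under 0.05, all of them lower, with a list median of -0.14.

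The antioxidant, iron and lysosomal lists held 2 of 28, 1 of 22 and 1 of 39 called genes, where 1.06% of all tested genes were called lower. All of these calls were lower, but a single call gives no direction for a list. Of 28 targets of the antioxidant factor NRF2, 24 had a change below 0 (median -0.11) and 2 were called lower, with 9 (32.1%) at an unadjusted p under 0.05, all lower. Gsr, glutathione reductase, had 10.44, 10.49 and 10.40 with RvD2, against 10.88, 11.03 and 10.93 untreated (change -0.50 ± 0.06, adjusted p = 0.00693, stable). Txnrd1, thioredoxin reductase, had 13.08, 13.37 and 13.15 with RvD2, against 13.68, 13.81 and 13.78 untreated (change -0.55 ± 0.08, adjusted p = 0.0138, up to 0.0838 without RvD2 replicate 3, untreated replicate 2 or untreated replicate 3). Both enzymes restore reduced thiols, and their groups did not overlap. Hmox1, the best-known NRF2 target, changed by -0.19 (adjusted p = 0.574). Slc40a1, the iron exporter ferroportin, had 11.59, 11.90 and 11.66 with RvD2, against 12.36, 12.36 and 12.49 untreated (change -0.69 ± 0.08, adjusted p = 0.00813, stable), the only 1 called of 22 iron and heme genes (median -0.05). Of 39 lysosomal genes, Atp6v0a1, a proton pump subunit, fell by 0.32 (adjusted p = 0.0212, up to 0.105 and held only without RvD2 replicate 1), and the median was 0.00. Atp6v0a1 was also the only 1 of the 39 (2.56%) at an unadjusted limma p under 0.05, against 15.6% of all tested genes.

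A set of families was formed after the values were seen and is described without a test of any family. The FLCN complex, which relays nutrient signals to the lysosome, fell at all 3 members. Fnip2 had 11.12, 11.39 and 11.28 with RvD2, against 11.90, 12.26 and 12.13 untreated (change -0.83, adjusted p = 0.00747). Flcn fell by 0.45 (adjusted p = 0.0204) and Fnip1 by 0.40 (adjusted p = 0.0322). Of 10 SR splicing factors, 3 were lower: Srsf5 (-0.54, adjusted p = 0.0129), Srsf2 (-0.34, adjusted p = 0.026) and Srsf6 (-0.34, adjusted p = 0.0284). Clk4, a kinase that phosphorylates SR proteins, fell by 0.47 (adjusted p = 0.0249). Of 4 CPEB proteins, which control translation through poly(A) tails, Cpeb4 (-0.66, adjusted p = 0.00292) and Cpeb2 (-0.49, adjusted p = 0.0121) were lower. Of 13 tested protein-coding tubulins, 12 had a change below 0 and 4 were lower, from -0.55 for Tuba4a to -0.33 for Tubb2b, where Tubb2a and Tubb2b are close copies that may share reads.

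Cell division, cholesterol, cAMP target and immediate early genes held 37 of the 283 called genes and are given briefly. Of 34 cell cycle genes, 18 were lower and 0 higher (median -0.43), and the count was 7 without RvD2 replicate 3. The lower members were those of G2 and mitosis, such as Ccnb1 (-0.85, adjusted p = 0.00803) and Cenpf (-0.85, adjusted p = 0.00339), whereas S-phase genes such as Mcm5 (-0.03, adjusted p = 0.918) and Pcna (0.07, adjusted p = 0.673) did not pass. Of 32 kinesins, 7 were lower and 0 higher. Of 22 cholesterol genes, 4 were lower and all 22 had a change below 0 (median -0.41), and the count was 1 in every leave-one-out fit except that without untreated replicate 1. Of 14 cAMP and CREB targets, 10 were higher (median 0.84, and 5 without RvD2 replicate 3, untreated replicate 2 or untreated replicate 3), and of 23 immediate early genes 7 were higher (median 0.32, count 2 without RvD2 replicate 3). Fos had 11.38, 11.66 and 11.86 with RvD2, against 10.22, 10.72 and 10.72 untreated (change 1.08 ± 0.16, adjusted p = 0.0132). Its call was lost without RvD2 replicate 2 or RvD2 replicate 3 (adjusted p up to 0.0712).

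The Ccnb2 window is shown because it holds 3 copies of the CCAAT box, the motif of NF-Y that recurs in promoters of G2 and mitotic genes, within the last 87 bases before the start. It is chr9:70421555-70421804, minus strand (RefSeq, GRCm38.p6), 250 bases upstream of the start, with CCAAT in capitals.
Ccnb2: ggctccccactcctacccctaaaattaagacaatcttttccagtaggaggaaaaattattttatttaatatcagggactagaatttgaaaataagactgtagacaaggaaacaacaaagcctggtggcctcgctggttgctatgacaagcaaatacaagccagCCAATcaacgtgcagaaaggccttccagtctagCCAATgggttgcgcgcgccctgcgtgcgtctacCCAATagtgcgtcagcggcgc
The copies begin 87, 54 and 21 bases before the start. Of 15 called cell cycle genes with a 300-base window, 13 held CCAAT on either strand, as did 41.1% of the genes in the RefSeq table, 42.9% of the tested genes with a window and 54.4% of all genes lower with RvD2 that had one.

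**Figure D4:**
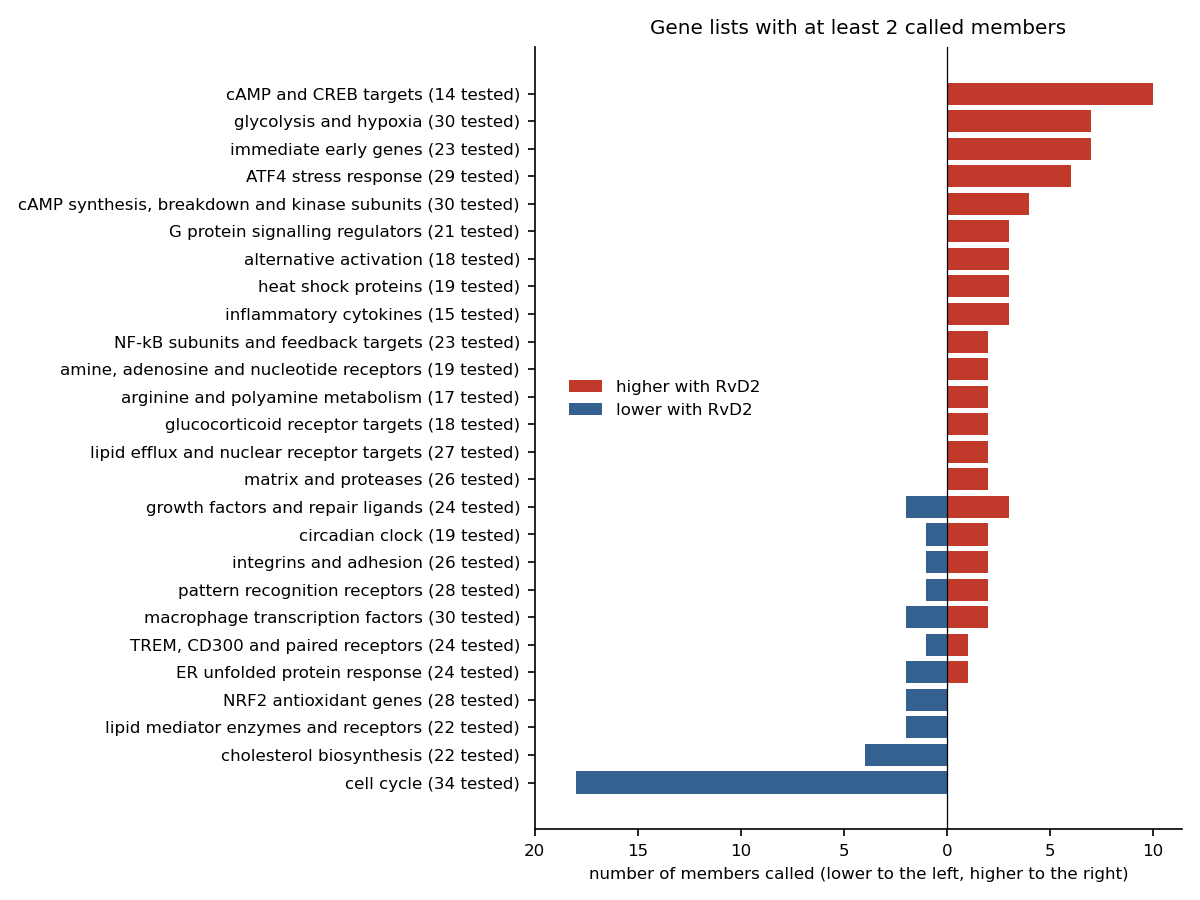
Bars give the number of members called higher (red, to the right) and lower (blue, to the left) with RvD2 for each gene list with at least 2 called members, with the number tested in brackets (x axis, number of genes). The cAMP targets, hypoxia, immediate early and ATF4 lists hold the most higher members, and the cell cycle list, with 18, the most lower ones.

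In 17 of the 54 pathway lists no member was called by limma, and the core energy and translation machinery was among them. Of 36 oxidative phosphorylation genes, 1 had an unadjusted p under 0.05, and changes ran from -0.10 to 0.09. Atp5b, an ATP synthase subunit, differed by 0.00 with an interval of -0.12 to 0.12. Of 42 ribosomal protein genes, 1 had an unadjusted p under 0.05 (median -0.02), as had 2 of 23 citric acid cycle genes (median -0.02). Ribosome biogenesis (30 tested, 3 at an unadjusted p under 0.05), apoptosis regulators (30 tested, 6), autophagy (29 tested, 4) and complement (17 tested, 1) also had 0 called. TGF-beta and BMP signalling had 0 called of 29, although 14 had an unadjusted p under 0.05, 8 higher and 6 lower. Of the called genes, 56 higher and 123 lower ones were in no list.

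The study's muscle macrophages gave a second view of the RvD2-responsive genes. Ly6Chigh macrophages are the inflammatory cells that enter injured muscle first, and Ly6Clow macrophages the later, repair-associated ones. The authors deposited 1 mean per muscle group, so these values carry no error and no test. Among the genes higher with RvD2 that reached a normalised count of 50 in either subset at day 2, 40 of 114 (35.1%) were at least 2-fold lower in Ly6Clow than in Ly6Chigh cells and 5 (4.39%) at least 2-fold higher. Of all 11211 tested genes at that level, 5.07% were lower and 5.9% higher. Among the genes lower with RvD2, 34 of 129 (26.4%) were higher in Ly6Clow cells and 4 (3.1%) lower. The median log2 ratio of Ly6Clow over Ly6Chigh was -0.81 for the genes higher with RvD2 and 0.37 for the genes lower with it. Without the 4 lists given briefly above, the shares were 30.3% and 20%, against 4.9% and 5.72% of all tested genes. When a level of 200 was required, the first share was 37.1%, against 5.54% of all genes, but the second was 13.7%, against 4.04%. The median ratio of the genes lower with RvD2 was then 0.0, against -0.03 for all genes at that level, and it was 0.18 without the 4 lists. That of the genes higher with RvD2 was -0.83 at a level of 200 and -0.67 without the 4 lists.

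At day 4 after injury fewer of these genes differed 2-fold between the subsets. Of the genes higher with RvD2, 13 of 114 (11.4%) were at least 2-fold lower in Ly6Clow cells, against 3.28% of all 11553 tested genes at that level. Of the genes lower with RvD2, 23 of 141 (16.3%) were higher in Ly6Clow cells, against 2.87% of all. Single genes showed the pattern to different degrees. At day 2, Cytip was at 10.27 in Ly6Clow and 12.89 in Ly6Chigh cells. Tlr5 was at 6.83 in Ly6Clow and 9.33 in Ly6Chigh cells, and Ankrd37 at 5.12 in Ly6Clow and 7.84 in Ly6Chigh cells, so all 3 were lower in Ly6Clow. Hilpda did not follow them, with 11.35 in Ly6Clow and 11.33 in Ly6Chigh cells at day 2. Slc40a1, lower with RvD2 in culture, was at 5.58 in Ly6Clow and 4.80 in Ly6Chigh cells at day 2, under a 2-fold difference. At day 4 it was at 9.78 in Ly6Clow and 6.80 in Ly6Chigh cells.

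**Figure D5:**
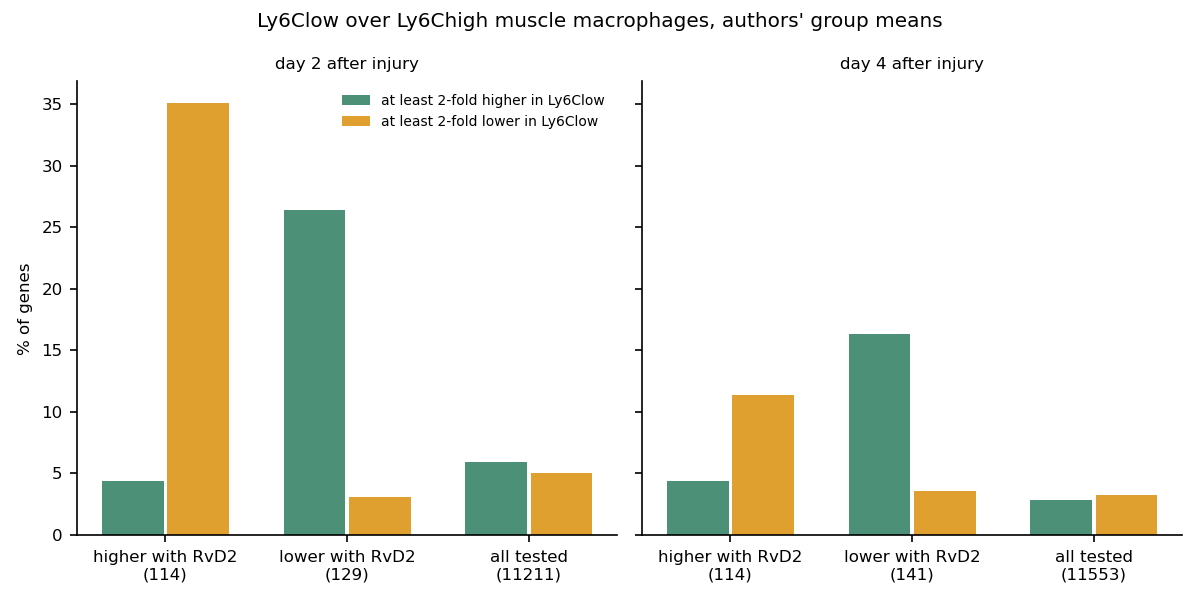
Bars give the percentage of genes (y axis, from 0) that were at least 2-fold higher (green) or lower (orange) in Ly6Clow than in Ly6Chigh muscle macrophages, by the authors' group means, at day 2 (left) and day 4 (right). At day 2, 35.1% of the genes higher with RvD2 were lower in Ly6Clow cells, against 5.07% of all tested genes.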

How the data were processed

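RNA was sequenced from 6 BMDM samples (3 RvD2-treated, 3 untreated), using poly(A)-selected libraries made with a kit that does not mark strand, per the labels' protocols. The authors deposited log2 normalised counts per gene, in which genes under 1 normalised count are at 0, and for muscle their log2 group means. TopHat2 2.0.7, DESeq and mm10 are named in the submitters' processing notes, without roles. The sources used here give no gene annotation. Without strand, reads of overlapping antisense genes cannot be told apart, and the lowest values come in steps smaller than a whole read, as when multiply mapped reads are shared, so close copies are uncertain. Estimated gene reads per library ran from about 9050000 to 14290000. The highest estimate, for untreated replicate 2, is the least certain. There the read step fitted 45.7% of the values checked, against 57.0 to 60.7% in the other libraries. That library also had the fewest genes above 0, 18456.

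Columns were used without rescaling. Genes averaging 10 or more normalised counts were fitted with limma 3.58.1 (R 4.3.3; trend, no block), RvD2 over untreated, and called at a Benjamini-Hochberg adjusted p under 0.05. Intervals are 95% limma intervals. With 3 against 3 samples a permutation test cannot go below p = 0.10, so none was used. The fit was tested on simulated data. Muscle group means were compared as ratios after adding 10 to the normalised count. Promoter windows come from RefSeq (GRCm38.p6), matched by gene identifier, or by gene symbol where the identifier found no window. They covered 72.7% of higher, 77.2% of lower and 65.8% of tested genes, so motif shares of those sets are descriptions, and a comparison between them is void.

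The genes named were the 12 largest called changes in each direction among genes averaging 50 or more normalised counts and without overlap between the groups, up to 4 called members of each list (or its 2 most abundant), and a fixed set (Gpr18, Alox5, Alox15, Ptgs1, Ptgs2, Emr1, Csf1r, Tnf, Il6, Il1b, Il10, Arg1, Mrc1, Igf1, Mertk and Abca1). Of the genes this rule picks, 1 is not reported here. Further list members and values are named for contrast, chosen after their values were seen. The members and lists were chosen with earlier results of these data known. Other filters, pseudocounts, scalings, variance models, a replicate block and leaving out each library were tried.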

Additional observations from a re-analysis of the deposited data

How the results depend on the processing

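Every gene called with RvD2 kept its direction under every alternative that tested it (283 genes, or 280 with a filter at 50 normalised counts). For all alternatives but the rescalings this was fixed in advance. Changing the filter, the variance model, the threshold or the replicate block leaves each gene's log2 change as it was. Because the groups of every called gene were separate, pseudocounts, library weights and leaving out 1 library could not reverse it. Only the rescalings, quantile normalisation among them, could have changed a direction. The counts were 121 higher and 162 lower with the settings used. They were 53 and 84 with no filter beyond a value above 0, 22 and 27 without limma's trend, 309 and 377 with library weights, 30 and 39 at an adjusted p under 0.01, and 79 and 86 with an absolute log2 change of at least 0.5. Leaving out 1 library gave 32 to 140 higher and 47 to 150 lower genes. Other filters, pseudocounts, rescalings and a robust prior gave 110 to 169 and 143 to 220. The cause of these differences was not tested. Higher genes made up 42.8% of calls and at most 48% under any rescaling. Of 92 named called genes, 21 were called under every alternative, and none of the 92 changed sign. Genes that were not called, such as Tnf (-0.20 to 0.05) and Il10 (-0.11 to 0.30), could lie on either side of 0.

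With the replicate number as a block, 492 genes were higher and 574 lower, among them 9 type I interferon-stimulated genes, all higher. The labels give both groups numbers 1 to 3 but do not say that a number marks a shared mouse or day. Deviations from the group means correlated at 0.29, 0.02 and 0.05 between libraries of the same number. The 0.29, between the libraries numbered 1, was the highest of any RvD2 and untreated pair. Untreated replicate 2, however, correlated best with RvD2 replicate 3 (0.19). These values do not settle whether a number marks a pair, and the main fit used no block.

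Of the genes lower with RvD2, the share higher in Ly6Clow cells at day 2 was 26.4% at a level of 50 and 13.7% at 200 (median log2 ratio 0.37 and 0.0), an alternative chosen after seeing the data. Of all tested genes, 5.9% were higher at a level of 50 and 4.04% at 200. Depth, roughly estimated at 9050000 to 14290000 reads, limits low transcripts such as Gpr18, Il6 and Alox15, which were under the level needed for a test. In data simulated for the RvD2 comparison, changes of a log2 size of 0.5 were called less often than those of 1, so a gene not called is not shown to be unchanged.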
